A study of Mus musculus with 6 samples.

Results

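Il2, the gene of the T cell growth factor IL-2, and 7 receptor chain genes of the gamma chain cytokine family were followed in restimulated mouse CD4+ T cells. The 8 genes were taken by name, and 7 of them had a probe set carrying 1 gene symbol, among 19937 genes measured in all. The gene of the shared gamma chain itself, Il2rg, was not analysed here. Naive CD4+ T cells from B6 spleen, the strain of every sample, had first been primed with anti-CD3 and anti-CD28 over 2 days, rested overnight, coated for 20 min with antibody and then cross-linked with goat anti-hamster antibody for 8 h. A control group of 4 samples received anti-CD3 alone, and 2 samples received anti-CD3 together with anti-ICOS, an antibody to the costimulatory receptor ICOS. The RNA of each sample was hybridised to its own Affymetrix Mouse Gene 1.0 ST array. The titles call the samples biological replicates without saying whether they came from separate animals, so the p-values reflect array-to-array spread, which may be technical.

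IL-2 binds a receptor of an alpha chain (Il2ra, CD25), which captures the cytokine, a beta chain (Il2rb, CD122) and the gamma chain, and the beta and gamma chains signal. The alpha chains for IL-7 (Il7r), IL-4 (Il4ra), IL-21 (Il21r) and IL-9 (Il9r) each pair with the same gamma chain. These receptors act through the kinases JAK1 and JAK3 and through STAT factors, and STAT5 in turn induces Il2ra and the feedback inhibitors of the CISH and SOCS family. In T cells Il2 and Il2ra are induced by the T cell receptor, whereas Il7r is high at rest and declines with activation.

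Levels are log2(intensity + 16), and the number of arrays limits their precision. Anti-CD3 replicate 4 stood apart from its group in genes of many kinds, and over all genes, which are not independent replicates, its Pearson correlation was 0.996 with each anti-ICOS array and between 0.982 and 0.987 with the other 3 anti-CD3 arrays. The labels name no batch, so each of the 7 genes is given against all 4 anti-CD3 arrays, against replicates 1 to 3, and against replicate 4. The defining T cell genes were bright in every array, but Cd4 and Cd3e read lower in the same arrays as Il2rb and Il7r. Cd4 read 12.32 to 12.45 in anti-CD3 replicates 1 to 3, 12.05 in replicate 4, and 11.95 and 12.00 with anti-ICOS. Cd3e read 12.72 to 12.81, 12.45, 12.40 and 12.43 in that order. Cd3d differed by only -0.033, and its groups overlapped. The mean of the 8 CD4 T cell marker genes measured was 11.72 to 11.82, 11.69, 11.58 and 11.63. Of these 8, 1 differed upward from all 4 controls and 2 from replicates 1 to 3, beside 8442 and 8422 of all 19937 genes. B cell and CD8 genes were bright as well, with Cd79a between 12.10 and 12.35 and Cd8b1 between 11.49 and 11.76. In bulk samples fewer cells of a type and less RNA per cell cannot be told apart.

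Upstream sequences are shown for the 3 of the 7 measured genes with the highest positive differences and for Il7r, whose level lay lower. Each line gives the 250 bases before the RefSeq start on build GRCm38.p6, from 5′ to 3′ on the gene's strand.
Il2 (chr3:37125955-37126204, minus strand): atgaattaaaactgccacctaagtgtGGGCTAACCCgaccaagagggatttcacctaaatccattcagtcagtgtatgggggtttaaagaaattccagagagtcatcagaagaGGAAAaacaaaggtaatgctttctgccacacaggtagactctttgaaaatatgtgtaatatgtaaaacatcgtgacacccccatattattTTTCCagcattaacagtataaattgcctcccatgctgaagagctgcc
Il2ra (chr2:11642542-11642791, plus strand): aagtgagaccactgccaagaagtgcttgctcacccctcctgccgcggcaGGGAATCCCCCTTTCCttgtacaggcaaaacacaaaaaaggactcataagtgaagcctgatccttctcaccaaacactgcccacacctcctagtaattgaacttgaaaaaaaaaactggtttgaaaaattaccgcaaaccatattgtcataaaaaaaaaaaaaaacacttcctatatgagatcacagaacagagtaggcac
Il4ra (chr7:125552021-125552270, plus strand): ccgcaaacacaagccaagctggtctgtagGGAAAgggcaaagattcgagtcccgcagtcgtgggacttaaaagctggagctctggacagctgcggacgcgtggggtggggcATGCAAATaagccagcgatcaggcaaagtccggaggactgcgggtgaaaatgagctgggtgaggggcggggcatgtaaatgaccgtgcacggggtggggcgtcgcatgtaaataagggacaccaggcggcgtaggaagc
Il7r (chr15:9529877-9530126, minus strand): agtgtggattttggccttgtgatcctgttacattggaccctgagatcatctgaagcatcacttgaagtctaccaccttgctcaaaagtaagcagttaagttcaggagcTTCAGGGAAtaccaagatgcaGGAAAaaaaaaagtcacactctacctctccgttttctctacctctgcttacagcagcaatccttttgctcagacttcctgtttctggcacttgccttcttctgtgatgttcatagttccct
Capitals mark the letters searched on both strands: the NFAT core GGAAA, the NF-kB form GGGNNNNNCC, the STAT form TTCNNNGAA, the AP-1 form TGANTCA, the FOXO form GTAAACA and the octamer ATGCAAAT. RefSeq promoters were matched for 7 of the 8 genes, all but Il2rb. The NFAT core was found in 5 of these 7, against 55.6% of 32851 promoter windows of the same length, and the NF-kB form in 3 of 7, against 45.8%. Il2 held the NFAT core at 2 places, from base -137 and from base -47 before the start. In Il2ra the forms for NF-kB and NFAT lay next to each other, between bases -201 and -186, with overlapping NF-kB matches on both strands. Il4ra held the octamer, present in 1.6% of windows, and Il7r held the STAT form, present in 7.02%. No AP-1 form was found in the 7 windows, against 6.75% of all. A match describes letters and not a bound site.

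The main comparison asks whether engaging ICOS together with CD3 changed these transcripts. Il2, Il2ra, Il4ra and Il21r read higher on the mean of the anti-ICOS arrays and Il2rb, Il7r and Il9r lower, by between 0.18 and 0.56 on the log2 scale in size. Against all 4 anti-CD3 arrays 0 of the 7 genes passed the test (limma, Benjamini-Hochberg over all genes), beside 0.271% of all genes. At an unadjusted p under 0.05, 3 of the 7 did (Il2 and Il4ra higher, Il9r lower). Of all 19937 genes, 1245 were higher and 1109 lower at that limit. Against anti-CD3 replicates 1 to 3 all 7 passed, 4 higher and 3 lower, beside 29.7% of all genes (17.1% higher and 12.7% lower). Array quality weights gave anti-CD3 replicate 4 the least weight and anti-CD3 replicate 1 the most, and with them all 7 passed beside 47.2%. Against replicate 4 alone 0 of 7 passed, beside 0.176%. The median difference of the 7 genes was 0.18 against all 4 arrays, 0.25 against replicates 1 to 3 and 0.024 against replicate 4, and that of all genes was -0.031, -0.041 and -0.013.

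The ligand gene Il2 read 6.67, 6.47 and 6.58 in anti-CD3 replicates 1 to 3, 7.22 in replicate 4, and 7.21 and 7.37 with anti-ICOS. Replicate 4 lay inside the anti-ICOS range and the other 3 control arrays far below it, so the groups overlapped. On the linear scale the same arrays gave intensities of 85.5, 72.7, 79.6 and 133, against 132 and 150 with anti-ICOS. The group means were 6.73 ± 0.33 (SD, n = 4) and 7.29 ± 0.11 (SD, n = 2), a difference of 0.56 ± 0.20 (SE, limma adjusted p = 0.417). Against replicates 1 to 3 Il2 rose by 0.72 ± 0.083 (limma adjusted p = 0.00093), or 1.65-fold, and against replicate 4 the difference was 0.077 (95% interval -0.18 to 0.34). At these low intensities the added offset makes the fold change smaller: with an offset of 1 the difference was 0.64 and with 64 it was 0.40.

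The IL-2 receptor chains differed in opposite directions. Il2ra, the activation-induced alpha chain, read 11.39, 11.44, 11.32 and 11.61 in anti-CD3 replicates 1 to 4, and 11.65 and 11.63 with anti-ICOS. Both anti-ICOS arrays lay above all 4 control arrays, by a margin over replicate 4 that was smaller than the spread among the controls. The difference was 0.20 ± 0.093 (limma adjusted p = 0.423) from a control mean of 11.44 ± 0.12 (SD, n = 4), and 0.26 ± 0.065 against replicates 1 to 3 (limma adjusted p = 0.0230). Against replicate 4 it was 0.031 (95% interval -0.17 to 0.24).

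Il2rb, the signalling beta chain shared by the receptors for IL-2 and IL-15, read 12.14, 12.13 and 12.11 in anti-CD3 replicates 1 to 3, 11.63 in replicate 4, and 11.67 and 11.65 with anti-ICOS. The first 3 control arrays lay close together and high, and replicate 4 was lower than both anti-ICOS arrays. Across the 4 control arrays the mean was 12.00 ± 0.25 (SD, n = 4), and the difference was -0.35 ± 0.15 (limma adjusted p = 0.423). Against replicates 1 to 3 Il2rb fell by 0.47 ± 0.060 (limma adjusted p = 0.00149), to 0.722 of the control level, the steepest decline of the 7 genes. Against replicate 4 the direction turned, with a difference of 0.024 (95% interval -0.16 to 0.21). Regulatory T cells carry much CD25, and 0 of 4 of their marker genes passed the test against all 4 control arrays, beside 0.271% of all genes. Foxp3, Ikzf2 and Lrrc32 differed there by 0.80, 0.31 and 0.85, and Ctla4 by -0.30. Against replicates 1 to 3, 4 of 4 passed, 3 higher and 1 lower, beside 17.1% and 12.7% of all genes. The mean level of the 4 genes was 9.56 to 9.60 in anti-CD3 replicates 1 to 3, 10.08 in replicate 4 and 10.10 to 10.13 with anti-ICOS, and the summed intensity was 4310 to 4908 in the controls and 4825 to 4897 with anti-ICOS. A list of 6 NK cell genes, cells that carry CD122, lay at 6.02 to 6.09, 6.23 and 6.44 to 6.56 in the same order. Its sums were 429 to 727 in the controls and 774 to 820 with anti-ICOS. Of these 6 genes 0 passed against all 4 control arrays, beside 0.271% of all genes. Against replicates 1 to 3, 5 passed, 5 higher and 0 lower, beside 17.1% and 12.7% of all genes. Most of the NK cell genes were dim, and the filter on dim genes kept 1 of the 6. The part of these cells in the differences was not tested.

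**Figure D1:**
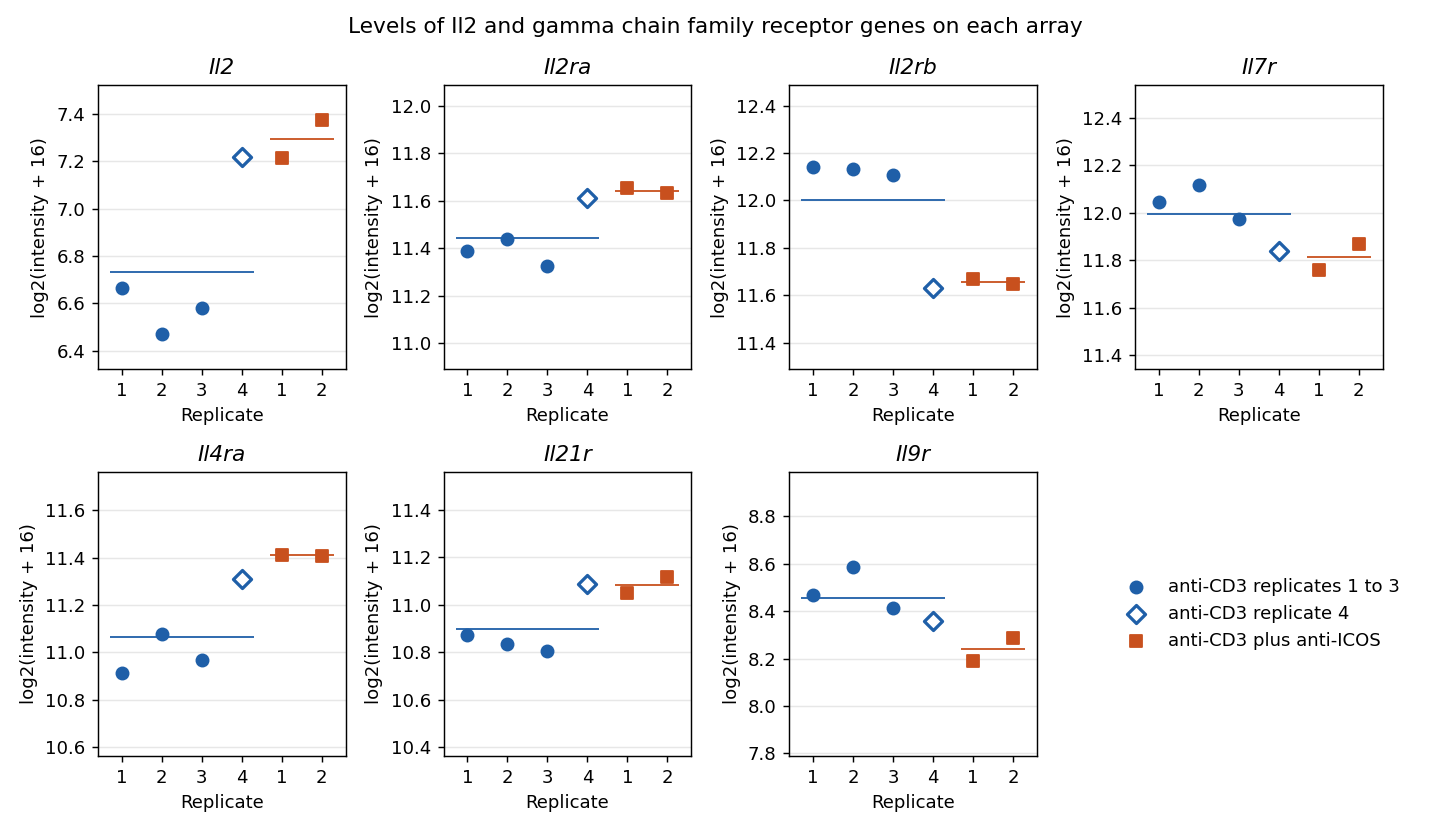
Level of each gene as log2(intensity + 16) on the y axis, for the 4 anti-CD3 arrays (blue, replicate 4 as an open diamond) and the 2 anti-CD3 plus anti-ICOS arrays (orange), with lines at the group means; all panels span the same range. Replicate 4 lies outside the range of replicates 1 to 3 for all 7 genes, toward the anti-ICOS arrays, for example at 11.63 for Il2rb against 12.11 to 12.14; for Il9r it lies about midway between them, at 8.36.

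Il4ra, the alpha chain that binds IL-4, showed the highest positive difference among the 6 receptor genes measured of the 8 taken by name. It read 10.91, 11.08, 10.97 and 11.31 in anti-CD3 replicates 1 to 4, and 11.41 and 11.41 with anti-ICOS. Both anti-ICOS arrays lay above every control array, with replicate 4 the nearest. The difference was 0.34 ± 0.12 (limma adjusted p = 0.414) from 11.07 ± 0.18 (SD, n = 4). Against replicates 1 to 3 Il4ra rose by 0.42 ± 0.071 (limma adjusted p = 0.00454), or 1.34-fold, and against replicate 4 the difference was 0.099 (95% interval -0.12 to 0.32).

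Il21r, the IL-21 receptor gene and a protein-coding neighbour of Il4ra in the RefSeq annotation, read 10.87, 10.83, 10.80 and 11.09 in anti-CD3 replicates 1 to 4, and 11.05 and 11.12 with anti-ICOS. Replicate 4 fell between both anti-ICOS arrays. The difference was 0.18 ± 0.097 (limma adjusted p = 0.427) against all 4 arrays and 0.25 ± 0.063 against replicates 1 to 3 (limma adjusted p = 0.0239). Against replicate 4 it was -0.0031 (95% interval -0.20 to 0.19), so the sign turned there too. Both chains are also made by B cells, whose 5 measured marker genes had a mean level of 11.29 to 11.50 in the controls and 11.33 to 11.48 with anti-ICOS, with sums of 14970 to 17470 and 15981 to 17587. These ranges overlap, but the members went both ways: Fcer2a differed by -0.50, with both anti-ICOS arrays below all 4 controls, Cd79a by -0.087, and Ms4a1, Cd79b and Pax5 by 0.19, 0.16 and 0.24. None of the 5 passed the test against all 4 control arrays, beside 0.271% of all genes. Against replicates 1 to 3, 3 of 5 passed, 2 higher and 1 lower, beside 17.1% and 12.7% of all genes.

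Il7r, the alpha chain that binds IL-7 and supports survival of resting T cells, read 12.05, 12.12 and 11.97 in anti-CD3 replicates 1 to 3, 11.84 in replicate 4, and 11.76 and 11.87 with anti-ICOS. Replicate 4 again lay between both anti-ICOS arrays, below its own group. The difference was -0.18 ± 0.095 (limma adjusted p = 0.426) against all 4 arrays. Without replicate 4 Il7r fell by 0.23 ± 0.073 (limma adjusted p = 0.0455), and against replicate 4 the difference was -0.027 (95% interval -0.25 to 0.20).

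Il9r, the alpha chain that binds IL-9, read 8.47, 8.59, 8.41 and 8.36 in anti-CD3 replicates 1 to 4, and 8.19 and 8.29 with anti-ICOS. Both anti-ICOS arrays lay below all 4 control arrays. The difference was -0.22 ± 0.086 (limma adjusted p = 0.420) against all 4 arrays, and against replicates 1 to 3 Il9r fell by 0.25 ± 0.076 (limma adjusted p = 0.0415). Against replicate 4 it was -0.12 (95% interval -0.36 to 0.11), the widest remaining distance among the 7 genes.

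The position of replicate 4 was shared by the 7 genes. Both anti-ICOS arrays lay outside the range of all 4 control arrays for 3 of 7 genes, Il2ra and Il4ra above and Il9r below, where 23.3% of all genes did so (8.51% above and 14.7% below). They lay outside the range of replicates 1 to 3 for 7 of 7, 4 above and 3 below, against 63.6% of all genes (28.5% above and 35.1% below). Replicate 4 was itself outside the range of replicates 1 to 3 for 7 of 7 genes, against 76.9%. It was nearer to the anti-ICOS mean than to the mean of replicates 1 to 3 for 7 of 7 genes, against 78.1%. Replicate 4 stood off the mean of replicates 1 to 3 by 0.64 for Il2, 0.33 for Il4ra, 0.25 for Il21r, 0.23 for Il2ra, -0.13 for Il9r, -0.21 for Il7r and -0.49 for Il2rb. The 3 sets of differences share the anti-ICOS arrays and are therefore not independent.

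**Figure D2:**
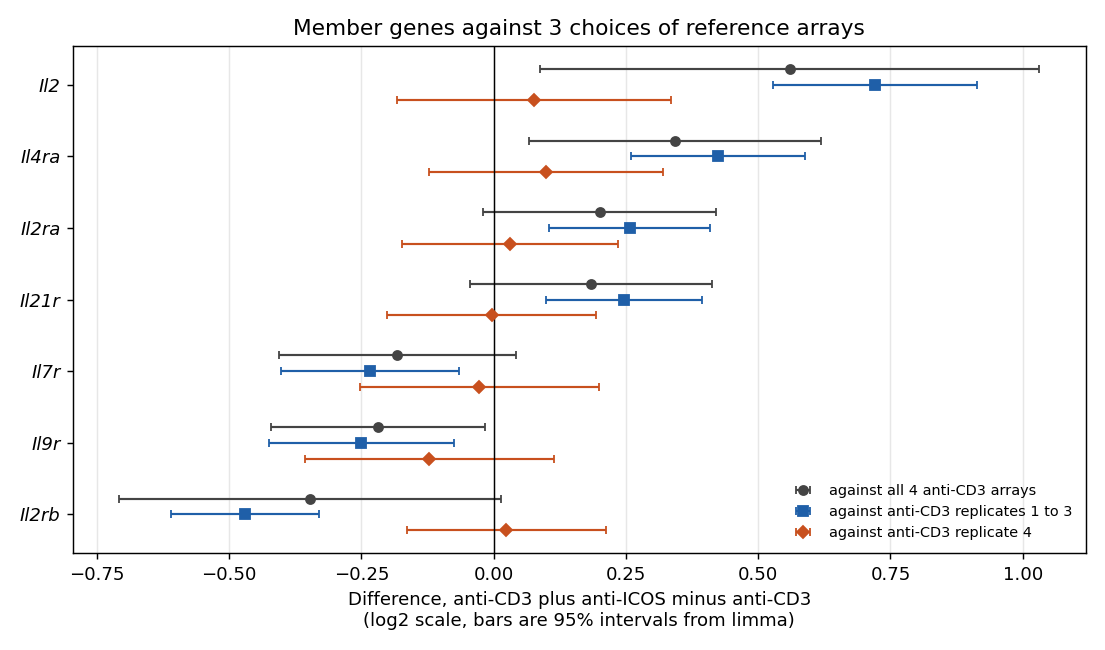
Difference between anti-CD3 plus anti-ICOS and anti-CD3 on the log2 scale (x axis) for each gene, against all 4 control arrays (grey), replicates 1 to 3 (blue) and replicate 4 (orange), with 95% intervals from limma. The intervals against replicates 1 to 3 lie on 1 side of 0 for all 7 genes, from 0.72 for Il2 to -0.47 for Il2rb, and those against replicate 4 all include 0.

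Among the other ligands and partner chains of the family, 1 of 9 genes passed the test against all 4 control arrays, beside 0.271% of all genes. Against replicates 1 to 3, 3 of 9 passed, 3 higher and 0 lower, beside 17.1% and 12.7% of all genes. Il15, the cytokine that signals through Il2rb and the gamma chain, read 5.65, 5.74, 5.58 and 5.92 in anti-CD3 replicates 1 to 4, and 6.50 and 6.56 with anti-ICOS. It rose by 0.80 ± 0.10 (limma adjusted p = 0.0463), and both anti-ICOS arrays lay above every control array. Without anti-CD3 replicates 1, 2 or 3 the call ended (limma adjusted p = 0.220, 0.214 and 0.129), at differences of 0.78, 0.81 and 0.76. It also ended without anti-ICOS replicates 1 or 2 (adjusted p = 0.322 and 0.344), and it held without anti-CD3 replicate 4 (0.000236). Against replicate 4 alone the difference was 0.61 (limma adjusted p = 0.105), and quantile normalization gave 0.88 (adjusted p = 0.0878). The higher offset of 64 gave a difference of 0.48 (adjusted p = 0.0917). Il15 was dim, with intensities of 31.8 to 44.6 in the controls and 74.5 and 78.1 with anti-ICOS, and the filter on dim genes removed it. Il15ra, the chain that presents IL-15 and a gene named here after its values were seen, read 8.01, 8.04, 8.18 and 8.86 in anti-CD3 replicates 1 to 4, and 8.96 and 8.93 with anti-ICOS, so that replicate 4 stood beside the anti-ICOS arrays. Its difference was 0.67 ± 0.23 (limma adjusted p = 0.415) and against replicate 4 it was 0.088. The list median was 0.063, and 0.018 without anti-ICOS replicate 1 and 0.11 without anti-ICOS replicate 2. Dendritic cells are a known source of IL-15. The mean level of 7 dendritic cell genes was 7.74 to 7.77 in replicates 1 to 3, 8.04 in the fourth control array and 8.48 to 8.49 after anti-ICOS. Their sums were 6468 to 7026 in the controls and 8107 to 8599 with anti-ICOS. Of these 7 genes 6 differed upward from all 4 controls, beside 8442 of all 19937 genes. Their median difference was 0.34 against all 4 control arrays and 0.25 against replicate 4. Of the 7 genes 1 passed the test against all 4 control arrays, beside 0.271% of all genes. Against replicates 1 to 3, 4 of 7 passed, beside 29.7%. Other lists moved as well: the mean of 6 monocyte and macrophage genes was 6.65 to 6.73 in replicates 1 to 3, 7.28 in replicate 4, and 7.34 and 7.73 with anti-ICOS. Those of 6 mast cell and basophil genes and of 6 neutrophil genes were 5.90 to 6.04 and 6.21 to 6.48 in the 4 controls. With anti-ICOS they were 6.33 to 6.66 and 6.54 to 7.13. Of the monocyte, mast cell and neutrophil genes 0 passed against all 4 control arrays, beside 0.271% of all genes. Against replicates 1 to 3, 4 of 6, 3 of 6 and 3 of 6 passed, beside 29.7% of all genes. The part of these cells in the rise of Il15 was not tested.

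Of 8 measured JAK and STAT transducers 0 passed the test against all 4 control arrays, beside 0.271% of all genes. Against replicates 1 to 3, 1 of 8 passed, beside 29.7%. The median difference was 0.047 against all 4 arrays, 0.099 without anti-CD3 replicate 4 and 0.074 without anti-CD3 replicate 2. Stat5a, which with Stat5b carries the IL-2 and IL-7 signal, read 9.92, 9.92, 9.88 and 9.97 in anti-CD3 replicates 1 to 4, and 10.47 and 10.23 with anti-ICOS. Both anti-ICOS arrays lay above all controls, with replicate 4 close to its own group. The difference was 0.43 ± 0.086 (limma adjusted p = 0.189), 0.45 against replicates 1 to 3 (limma adjusted p = 0.00682) and 0.38 against replicate 4 (limma adjusted p = 0.581). Stat5b, whose values are given here after they were seen, did not rise with Stat5a. It differed by -0.011 against all 4 arrays, -0.0051 against replicates 1 to 3 and -0.030 against replicate 4, and its groups overlapped. Stat3, which carries the IL-21 signal, differed by 0.17 and Stat6, which carries the IL-4 signal, by 0.11, neither past the test.

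Of 16 targets and feedback inhibitors of STAT5, 0 passed against all 4 control arrays, beside 0.271% of all genes. Their median difference was 0.35, with 13 of 16 above 0, beside -0.031 and 8442 of 19937 for all genes. Both anti-ICOS arrays lay above all 4 controls for 10 of 16 and below for 1, where 8.51% of all genes lay above and 14.7% below. Against replicates 1 to 3, 11 of 16 rose and 0 fell, beside 17.1% and 12.7% of all genes, with a median of 0.45. Against replicate 4 the median was 0.10 and 1 rose, beside 0.176% of all genes. Socs2, a SOCS box inhibitor of cytokine signalling, read 8.52, 8.58, 8.43 and 9.44 in anti-CD3 replicates 1 to 4, and 10.32 and 10.44 with anti-ICOS. Replicate 4 lay between the other controls and the anti-ICOS arrays. The difference was 1.64 ± 0.27 (limma adjusted p = 0.108) against all 4 arrays. With the mean of the gene's probe sets in place of the brightest it was smaller, 1.38 ± 0.20 (limma adjusted p = 0.0674). On the brightest probe set Socs2 rose by 1.87 against replicates 1 to 3 (limma adjusted p = 3.09e-05) and by 0.95 ± 0.10 against replicate 4.

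Cish, the STAT5-induced inhibitor that gave its name to the family, read 7.85, 7.86, 7.76 and 8.42 in anti-CD3 replicates 1 to 4, and 9.33 and 9.06 with anti-ICOS. Its difference was 1.23 ± 0.19 (limma adjusted p = 0.0884), with 0.78 against replicate 4 (limma adjusted p = 0.104). Prdm1, which encodes the repressor Blimp-1 and limits Il2 transcription, differed by 0.89 ± 0.13 (limma adjusted p = 0.0671) and by 0.66 against replicate 4 (limma adjusted p = 0.183). Prdm1 passed with an offset of 1 (limma adjusted p = 0.0486).

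**Figure D3:**
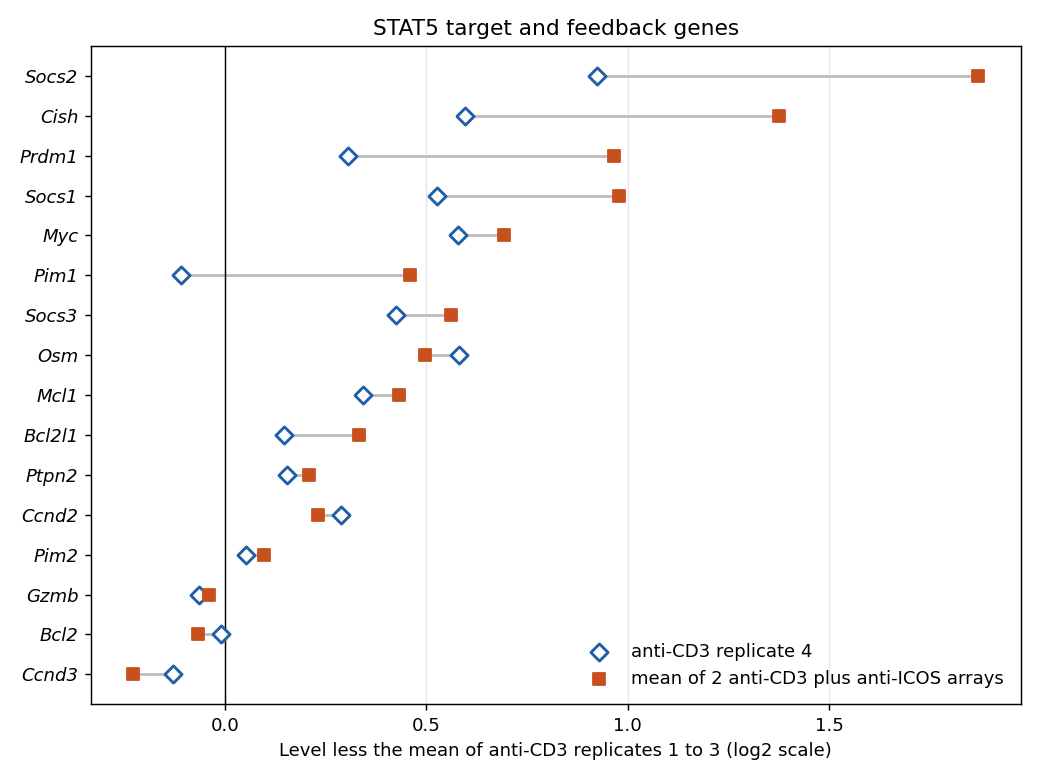
Level of 16 STAT5 target and feedback genes relative to the average of the 3 other anti-CD3 arrays (x axis, log2 scale), for anti-CD3 replicate 4 (open diamonds) and for the mean of the 2 anti-ICOS arrays (orange squares). Socs2 stands at 0.93 on the replicate 4 array and at 1.87 on the anti-ICOS arrays, Cish at 0.60 and 1.38, while Myc, named after its values were seen, stands at 0.58 and 0.69.

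Among regulators of the Il2 gene 0 of 11 measured passed the test against all 4 control arrays, beside 0.271% of all genes. Against replicates 1 to 3, 6 of 11 passed, 5 higher and 1 lower, beside 17.1% and 12.7% of all genes. The median difference was 0.19 against all 4 arrays, 0.096 without anti-ICOS replicate 1 and -0.026 against replicate 4. Jun, a subunit of AP-1, differed by 0.85 ± 0.14 (limma adjusted p = 0.109), Rel, the NF-kB subunit c-Rel, by 0.35 ± 0.096 (limma adjusted p = 0.395) and Crem, whose product can repress Il2, by 0.39 ± 0.12 (limma adjusted p = 0.414). For these 3 genes both anti-ICOS arrays lay above all 4 controls, and against replicates 1 to 3 each rose, by 0.91, 0.40 and 0.45 (limma adjusted p = 0.00196, 0.00637 and 0.0137). Without anti-ICOS replicate 1 the difference of Crem was 0.23. Against replicate 4 the 3 genes differed by 0.67, 0.19 and 0.23, with none past the test. Of 5 regulators of the Il7r gene 0 passed against all 4 arrays and 0 against replicates 1 to 3, beside 0.271% and 29.7% of all genes. The list median was 0.080, and 0.15 without anti-CD3 replicate 4, 0.033 without replicate 3 and -0.068 against replicate 4. Ets1 differed by -0.11 (-0.070 without anti-ICOS replicate 1), Gfi1, a repressor of Il7r, by 0.11 and Runx1 by 0.070, and the sign turned against replicate 4 for Gfi1 (-0.068) and Runx1 (-0.024).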

How the data were processed

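The authors deposited a linear intensity for each probe set, from 7.23 to 22176, already normalized, for total RNA (1 ug) of 6 samples on 1-colour arrays. The submitters' processing notes name MAS5 and no other tool. How background, normalization and probe summary were done is not given in the sources used here. The centring of the values therefore stays unknown, and a shift of most genes 1 way would not be seen. Array medians lay between 109 and 114.

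Of 34760 probe sets 21640 carried 1 gene symbol, 1321 several and 11799 were unnamed here, and the brightest per gene gave 19937 genes. Levels are log2(intensity + 16), with no filter. Groups came from the sample titles. A linear model (lmFit, eBayes; limma 3.58.1, R 4.3.3) compared both groups over all genes, two-sided, with Benjamini-Hochberg adjustment and a threshold of 0.05. The fit against replicate 4 kept replicates 1 to 3 as a separate group that adds only to the spread.

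The genes and lists were chosen with earlier results of these data known. Named from each list were genes past the threshold or, where there were none, the 3 of smallest p. Genes with a like pattern were to be named for members spanning at least 1 on the log2 scale over the 6 arrays, and 0 did. The steps were tested on simulated data. Plots used matplotlib 3.10.9.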

Additional observations from a re-analysis of the deposited data

Results flagged for a closer look

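Among the 4 anti-CD3 arrays, replicate 4 lay far from the others for Il2rb, at 11.63 on the log2 scale against 12.11 to 12.14, a gap of 93.2% of the group's range where Dixon's limit is 82.9%. No array of the anti-CD3 group passed that limit for the other 6 genes. Chance alone sets off this rule in about 1 of 20 groups.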

How the results depend on the processing

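Offsets of 1 and 64 and quantile normalization kept the direction of all 7 genes and called none of them. Dropping the dimmest 40% of genes, a robust prior with a trend and averaging each gene's probe sets called none either. The filter and the prior leave the differences as they were by construction. Averaging did so for the 7 genes because each of them had 1 probe set. With array weights all 7 were called, at differences of 0.65 (Il2), 0.24 (Il2ra), -0.47 (Il2rb), -0.24 (Il7r), 0.46 (Il4ra), 0.22 (Il21r) and -0.24 (Il9r). The weights were 4.53, 1.07, 0.38 and 0.15 for anti-CD3 replicates 1 to 4, so replicate 1 carried most of the control weight. With replicate number as a block, in which anti-CD3 replicates 3 and 4 drop out of the difference for want of a partner, all 7 were called at 0.72, 0.23, -0.48, -0.27, 0.42, 0.23 and -0.29 (same order), and 6551 genes in all were. The numbers are not known to pair the samples. Deviations from the group means correlated over genes at -0.039 and 0.10 for same-numbered arrays. The deviations of the 2 anti-ICOS arrays mirror each other by construction, so these values cannot decide whether the samples were paired.

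Leaving out 1 array at a time gave 0.47 to 0.72 for Il2, 0.16 to 0.26 for Il2ra, -0.47 to -0.30 for Il2rb, -0.24 to -0.13 for Il7r, 0.29 to 0.42 for Il4ra, 0.15 to 0.25 for Il21r and -0.27 to -0.17 for Il9r. The 7 were called only without anti-CD3 replicate 4, so the count of members called ran from 0 to 7 and that of all genes from 16 to 5930. Against replicate 4 alone Il2rb turned to 0.024, Il21r to -0.0031, Gfi1 to -0.068 and Runx1 to -0.024. The count of all genes called was 54, and 28 with an offset of 64, 9413 with array weights and 35 against replicate 4 alone. The cause of replicate 4's distance was not tested.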
